A study of Mus musculus with 4 samples.

Results

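Lcn2, Plet1, Slpi, Wfdc2, Ltf, Pglyrp1 and Lpo encode secreted or surface proteins of glandular epithelium, most of them known for defence against bacteria or for restraining proteases. They were followed in sorted basal cells of the mouse mammary gland with and without the microRNA miR-205. The genes were chosen by name, and Lcn2 and Plet1 were chosen for their high level in all 4 libraries, in CPM (counts scaled to an equal library total), so that their high level is a description and not a finding. Of these 7 genes, 6 had a row among the 34615 genes counted. Lpo, which encodes lactoperoxidase of milk and airway fluid, was not analysed here.

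The KO libraries came from miR-205fl/fl;RosamTmG/mTmG mammary cells, whose miR-205 alleles are flanked by loxP sites, and the WT libraries from WT;RosamTmG/mTmG cells with intact miR-205. Cells of both genotypes received a Cre adenovirus (Ad-cre), which also switches the mTmG reporter to green, and were transplanted into SCID-Beige mice of 3 weeks of age. Outgrowths were pooled (40 in the description) after 8 weeks, and GFP+ cells with CD24 and high CD49f were sorted as basal cells, with 2 KO and 2 WT libraries. Green fluorescence reports recombination of the reporter and not of miR-205 itself. The hosts lack B and T lymphocytes but keep myeloid cells, including neutrophils. The mTmG reporter is stated for the transplanted cells only, and host cells without it would enter a GFP+ sort only as impurity. Nothing states that replicates came from separate pools, so that the spread behind each p-value may be technical only.

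The epithelium of the milk ducts is protected by proteins that withhold iron from bacteria, bind their cell walls or inhibit the proteases of neutrophils. Lipocalin 2 (Lcn2) captures the siderophores with which bacteria collect iron, and lactoferrin (Ltf) binds iron itself and is a major protein of milk. Slpi and Wfdc2 are small secreted proteins of the whey acidic protein family. Slpi inhibits neutrophil elastase and cathepsin G. Pglyrp1 binds bacterial peptidoglycan. Plet1 differs from the others, being a membrane-anchored glycoprotein that marks progenitor cells in several mouse epithelia and, in the mammary gland, luminal progenitors. Lcn2, Ltf and Pglyrp1 are also stored in neutrophil granules.

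The sequences bear on whether any of these transcripts could be reached by miR-205 directly. The mature microRNA, from RefSeq (GRCm38.p6, chr1:193507503-193507524, minus strand), is shown with its seed, bases 2 to 8, in capitals. Among the 6 genes, 1 had a seed match of 7 bases in its longest annotated 3′ UTR (GENCODE M21, GRCm38), and it was Plet1, with 2 matches in 937 bases. The first was a 7mer-m8 match (ATGAAGG) at bases 80 to 86 after the stop codon, and the second a 7mer-A1 match (TGAAGGA) at bases 500 to 506, both shown with their flanks and with the match in capitals. Such a match occurred in 20% of 18184 genes with an annotated 3′ UTR. No match was found in the 3′ UTRs of Lcn2 (232 bases), Ltf (585), Slpi (245), Wfdc2 (177) and Pglyrp1 (99). A match is a description, and binding was not measured.
miR-205-5p: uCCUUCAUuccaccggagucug
Plet1 first match: acatacccgaATGAAGGttttatgtcc
Plet1 second match: cggtaggtttTGAAGGAagtatatgaa

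The promoters of the 3 most abundant of these genes are shown because they share a run of 8 bases. Each window runs from 250 bases before to 50 bases after the gene start in RefSeq (GRCm38.p6), written along the gene. Capitals mark TTGCNNAA, a form read by C/EBP factors, and the shorter TTGCNAA that was searched with it, on either strand, and TATAA. The run TTGCTCAA, or TTGAGCAA on the opposite strand, stood at position -216 in Lcn2, -198 in Plet1 and -241 in Slpi, counted from the start. This run was picked after the sequences were seen, and 0.962% of 32851 promoter windows held it. The longer or the shorter form occurred in 17.5% of windows, counted together, and TATAA, found in Plet1, in 24.9%. Ltf (TTGGGCAA at -75) also held the longer form and Pglyrp1 (TTAGCAA at -152) the shorter, so neither was particular to the abundant genes. The NF-kB consensus, present in 4.51% of windows, was found in Pglyrp1 alone among these genes. CATTCC, read by TEAD factors, was in 14.7% of windows and TTCNNNGAA, read by STAT factors, in 8.3%, and neither lay in any of the 6 promoters on either strand.
Lcn2, chr2:32387690-32387989, minus strand: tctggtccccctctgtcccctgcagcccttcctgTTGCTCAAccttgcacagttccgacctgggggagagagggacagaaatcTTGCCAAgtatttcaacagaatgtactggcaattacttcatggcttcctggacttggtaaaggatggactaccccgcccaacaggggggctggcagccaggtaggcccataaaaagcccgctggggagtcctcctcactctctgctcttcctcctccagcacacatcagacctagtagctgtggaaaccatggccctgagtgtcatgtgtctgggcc
Plet1, chr9:50494275-50494574, plus strand: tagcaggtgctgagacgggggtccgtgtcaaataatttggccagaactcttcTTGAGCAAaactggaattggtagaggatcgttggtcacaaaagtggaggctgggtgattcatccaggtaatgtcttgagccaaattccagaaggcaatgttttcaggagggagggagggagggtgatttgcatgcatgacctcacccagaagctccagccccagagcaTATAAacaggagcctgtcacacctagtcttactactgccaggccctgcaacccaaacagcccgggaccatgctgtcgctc
Slpi, chr2:164356458-164356757, minus strand: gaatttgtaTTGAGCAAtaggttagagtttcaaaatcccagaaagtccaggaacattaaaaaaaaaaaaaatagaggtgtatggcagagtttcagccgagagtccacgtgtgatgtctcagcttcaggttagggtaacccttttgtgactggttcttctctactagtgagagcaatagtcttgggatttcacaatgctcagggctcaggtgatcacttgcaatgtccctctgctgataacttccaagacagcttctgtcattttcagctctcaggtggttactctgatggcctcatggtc

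Libraries held 47953972 to 60030932 gene counts. A count was found for 18897 genes in KO replicate 1 but 12679 in KO replicate 2, against 18139 and 18027 in the WT libraries, so KO replicate 2 stands apart. Mir205, the targeted gene, had 0 counts in all 4 libraries and gives no check of the labels. Basal markers were abundant throughout: Krt5, the basal keratin, had 1773 and 1512 CPM in KO, against 1219 CPM in both WT libraries. Trp63, the basal transcription factor, had 900.6 and 1309 CPM in KO, against 1049 and 903.5 CPM in WT, and the luminal keratin Krt8 had 327 and 318 CPM in KO, against 244.7 and 356.2 CPM in WT. CPM values here are scaled by TMM, a factor that corrects each library total for its composition.

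Lcn2 was higher in both KO libraries than in either WT library, though the difference was not past the test. Lcn2 (ENSMUSG00000026822) had 1255 and 1457 CPM in KO, against 926 and 1102 CPM in WT. The groups did not overlap, and without TMM scaling the values were 1314 and 1267 CPM in KO, against 983.2 and 1137 CPM in WT. The means were 1356 ± 142.9 CPM in KO and 1014 ± 124.6 CPM in WT (SD, n = 2 each). The log2 fold change of KO over WT was 0.42 ± 0.20 (SE), with an edgeR quasi-likelihood p of 0.08492 and an adjusted p of 0.9989 over 15364 genes. In that comparison 0% of genes were called higher in KO and 0% lower at an adjusted p under 0.05, and 0.957% (147 genes) had an unadjusted p under 0.05. Both KO libraries lay above both WT libraries in 13.2% of genes tested, and below them in 19.2%. Lcn2 stood at 1.24 and 1.44 times the WT mean in KO replicates 1 and 2. Of the 95 genes with a WT mean of 1000 CPM or more, 8.42% and 15.8% stood as high. An exact permutation test of 2 against 2 libraries cannot give a p below 0.333.

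Plet1, the gene with the seed matches, did not part the genotypes. Plet1 (ENSMUSG00000032068) had 1059 and 1857 CPM in KO, against 1209 and 1549 CPM in WT. The lowest and the highest of the 4 values were both KO libraries, and both WT libraries lay between them. The means were 1458 ± 564.3 CPM in KO and 1379 ± 240.9 CPM in WT (SD, n = 2 each), with a log2 fold change of 0.08 ± 0.32 (SE; edgeR adjusted p = 0.9989). Its sign turned with the scaling, to -0.06 with upper quartile and -0.08 with total count scaling. It was 0.42 without KO replicate 1 (edgeR unadjusted p = 0.03195, adjusted p = 0.07696) and -0.38 without KO replicate 2 (edgeR unadjusted p = 0.05032, adjusted p = 0.9998). In both genotypes replicate 2 had the higher value. An antisense gene, Plet1os, overlaps Plet1 in the later annotation, and reads of Plet1os cannot be told apart from those of Plet1 where counting ignored strand.

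**Figure D1:**
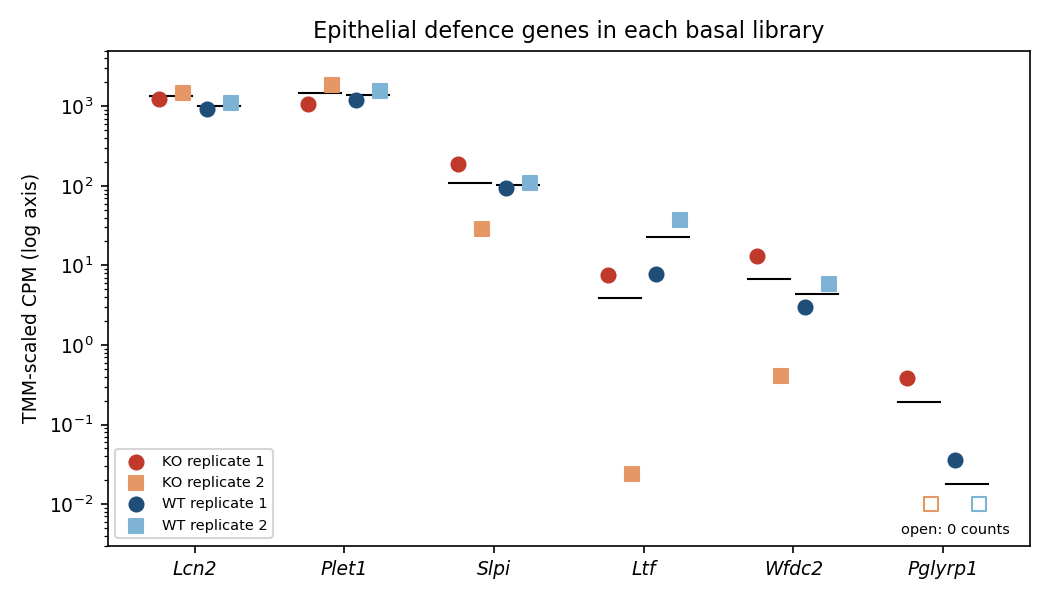
TMM-scaled CPM (log axis) of 6 epithelial defence genes in each KO and WT library, with a bar at each group's mean and open symbols for 0 counts. Lcn2 and Plet1 sit between 926 and 1857 CPM in all 4 libraries, while Slpi, Ltf and Wfdc2 are lowest in KO replicate 2.

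Per length of exons, Plet1 was the most abundant of these genes and Lcn2 the next. Averaged over the 4 libraries, Plet1 had 728.5 CPM per kb and Lcn2 451.7 CPM per kb, which ranked 13 and 24 among 12683 protein-coding genes tested. Plet1 had 543.8 and 953.7 CPM per kb in KO, against 620.7 and 795.7 CPM per kb in WT, and Lcn2 had 478.3 and 555.4 CPM per kb in KO, against 353 and 420.2 CPM per kb in WT. Plet1 thus exceeded Lcn2 per length in each library, and the gap was smallest in KO replicate 1. Slpi followed with 89.26 CPM per kb, above 97.4% of protein-coding genes, then Wfdc2 with 4.912, Ltf with 3.814 and Pglyrp1 with 0.0568 CPM per kb. Wfdc2 and Ltf changed places between libraries. The 6 genes together took 0.264% and 0.291% of gene counts in KO, against 0.238% and 0.289% in WT, and 91.67% to 99.14% of that was Lcn2 and Plet1.

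The pair of whey acidic protein genes parted the KO libraries from each other rather than from WT. Slpi (ENSMUSG00000017002) had 188.9 and 28.33 CPM in KO replicates 1 and 2, against 93.81 and 110.3 CPM in WT. Wfdc2 (ENSMUSG00000017723) had 13.14 and 0.4075 CPM (826 and 17 counts) in KO replicates 1 and 2, against 2.964 and 5.883 CPM in WT. For both genes KO replicate 1 was the highest library, KO replicate 2 the lowest, and WT lay between. The microRNA gene Mir7678 overlaps Slpi in the later annotation. Log2 fold changes were 0.09 ± 0.85 for Slpi and 0.62 ± 1.66 for Wfdc2 (SE; edgeR adjusted p = 0.9989 for each), values that average KO libraries on opposite sides of WT. Without KO replicate 2 they were 0.89 and 1.57, and without KO replicate 1 they were -1.85 and -3.44.

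These opposite shifts were set against all genes of like level in WT, a comparison added after the values were seen. Slpi stood at 1.85 times the WT mean in KO replicate 1, a multiple reached by 0.0829% of the 2413 genes with a WT mean of 50 to 200 CPM. In KO replicate 2 it stood at 0.278 times the WT mean, and 3.32% of those genes were as low. Wfdc2 stood at 2.97 times the WT mean in KO replicate 1, reached by 0.274% of the 3654 genes at 2 to 10 CPM. Its 0.0921 times in KO replicate 2 was matched or undercut by 39.2% of those genes. The low Wfdc2 value thus fell among many like it, while the high values of both genes in KO replicate 1 were near the top of their level class in that library.

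**Figure D2:**
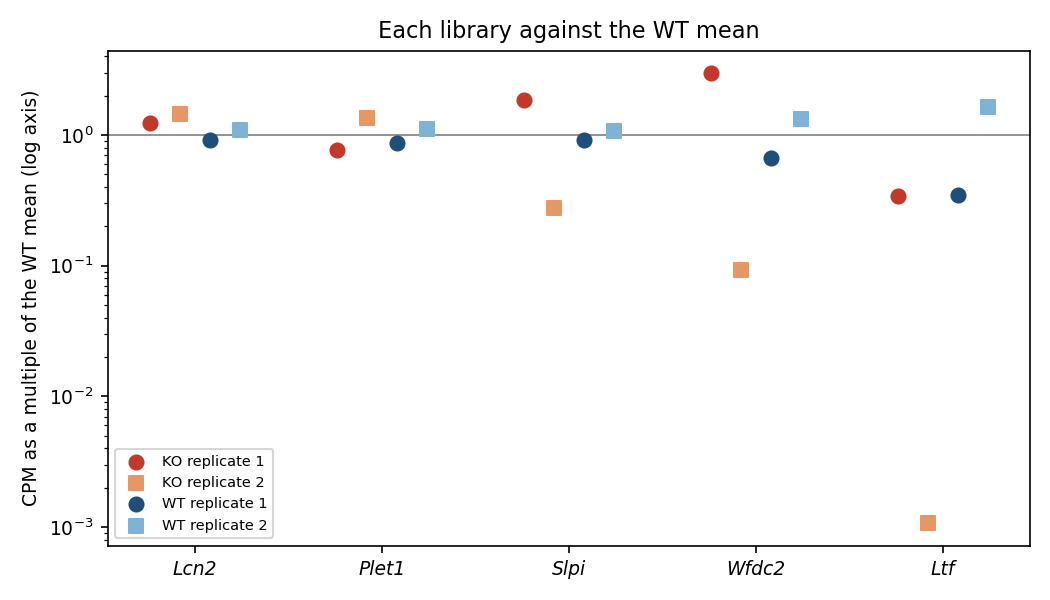
CPM of each library as a multiple of the mean of the 2 WT libraries (log axis) for the 5 genes that passed the filter on low counts. Slpi and Wfdc2 lie above the line at 1 in KO replicate 1 (1.85 and 2.97) and below it in KO replicate 2 (0.278 and 0.0921), while Lcn2 lies above it in both.

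Lactoferrin was scattered within each genotype. Ltf (ENSMUSG00000032496) had 7.685 CPM (483 counts) in KO replicate 1 and 1 count in KO replicate 2, against 7.808 and 37.11 CPM (440 and 2208 counts) in WT. The single count is 0.02397 CPM with an exact Poisson 95% interval of 0.000607 to 0.134 CPM, which covers counting error only. KO replicate 1 and WT replicate 1 lay close together, and WT replicate 2 stood above both. The groups did not overlap, with KO lower, by the narrow gap between 7.685 and 7.808 CPM. The log2 fold change was -2.54 ± 2.13 (SE; edgeR adjusted p = 0.9989). In KO replicate 2, 2.18% of the 3810 genes with a WT mean of 10 to 50 CPM had 1 count or none. Fewer cells with the transcript and less of it per cell cannot be told apart in bulk libraries, for any of these genes.

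Pglyrp1 was at the edge of detection and was not tested. Pglyrp1 (ENSMUSG00000030413) had 24 and 0 counts in KO, against 2 and 0 counts in WT. The 24 counts are 0.3819 CPM, with an exact Poisson 95% interval of 0.245 to 0.568 CPM. The libraries with no count leave room for 3 counts, which is 0.06256 CPM in KO replicate 2 and 0.05204 CPM in WT replicate 2 before TMM scaling.

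Values at or under 0.25 of the WT mean were common in KO replicate 2 at the levels of Ltf and Wfdc2. They were rare at those of Lcn2 and Plet1. Ltf itself fell further in KO replicate 2, to 0.00107 times the WT mean, and 1.6% of its level class were as low. In KO replicate 1 Ltf stood at 0.342 times the WT mean, and 0.367% of its class were as low. WT replicate 1 stood at 0.348, and WT replicate 2, at 1.65, set that mean high. This share therefore does not show a fall in KO replicate 1. Among genes with a WT mean of 2 to 10 CPM, 3.34% in KO replicate 1 and 48.5% in KO replicate 2 were at or under 0.25 of that mean. At 10 to 50 CPM the shares were 0.157% and 18.9%, and at 50 to 200 CPM 0.0414% and 2.53%. Of 95 genes at 1000 CPM or more, 0% were that low in either library, and 98.9% in KO replicate 2 were within 2-fold of the WT mean. The part of this difference between libraries in the values of Ltf, Wfdc2 and Slpi was not tested.

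**Figure D3:**
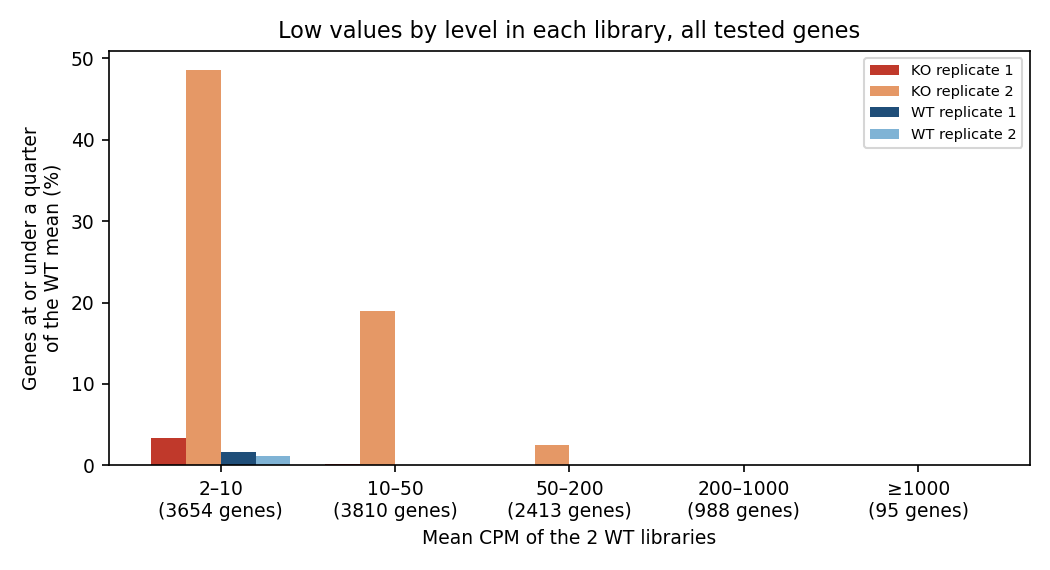
Share of tested genes (%) at or under 0.25 of the WT mean in each library, by mean WT level in CPM. The bars of KO replicate 2 reach 48.5% at 2 to 10 CPM and 2.53% at 50 to 200 CPM, and no gene at 1000 CPM or more was that low in any library.

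Calls on these genes appeared when KO replicate 1 was left out. Without KO replicate 1, where KO replicate 2 alone stood for KO, edgeR called Lcn2 higher (log2 fold change 0.52, adjusted p = 0.02862), and Slpi (adjusted p = 0.004102), Wfdc2 (0.03273) and Ltf (0.005482) lower. In that fit 12.4% of 16392 genes were called higher and 22.5% lower, so that calls were common. Without KO replicate 2, edgeR called 0 of 16904 genes, and 474 had an unadjusted p under 0.05. Lcn2 was positive in each of the 12 fits tried, from 0.28 with total count scaling to 0.55 without WT replicate 2. Its groups did not overlap with or without TMM scaling. Its sign was therefore largely set in advance, and the refits of the same libraries are no independent support.

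**Figure D4:**
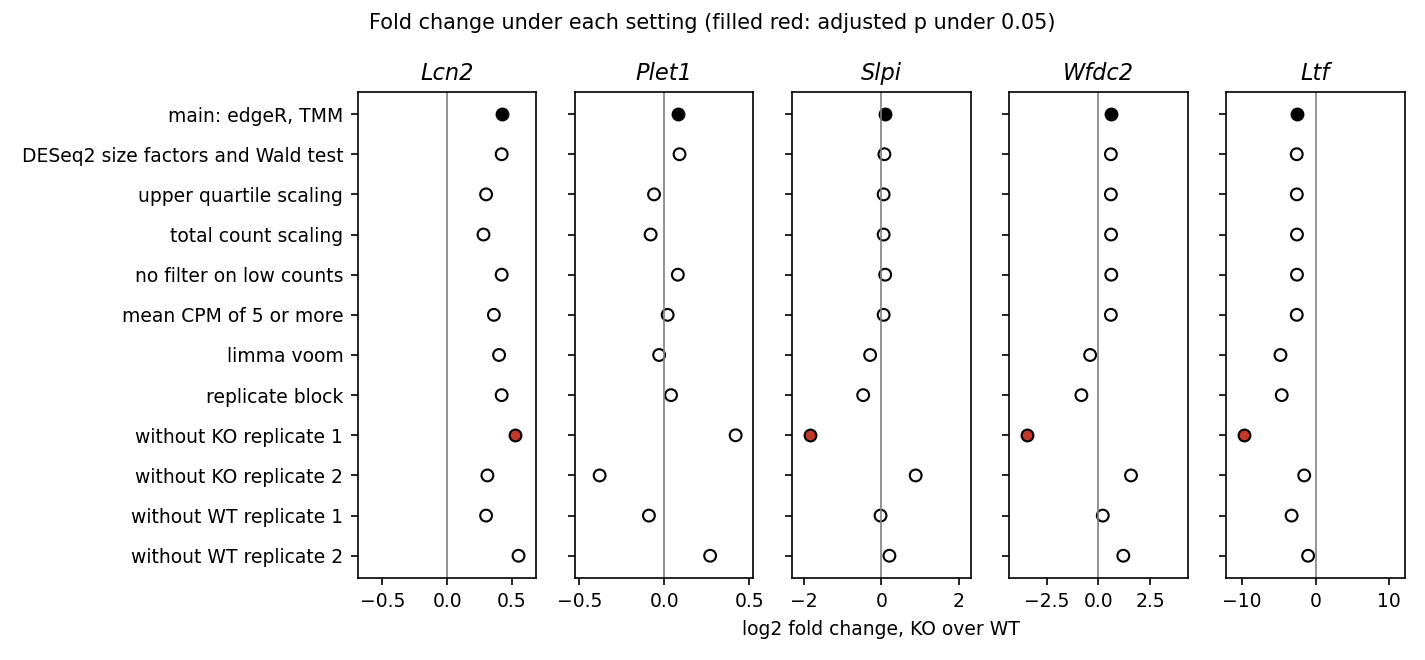
Log2 fold change of KO over WT for 5 genes (1 panel each, with its own axis) under each of 12 settings, with red marks for an adjusted p under 0.05. Lcn2 stays between 0.28 and 0.55, Plet1 crosses 0, and red marks appear only without KO replicate 1.

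Other epithelial defence genes showed no common direction. Of 42 listed genes of milk, mucus, complement and the oxidase system, 40 had a row and 25 were tested. The fold change was positive in 12 and negative in 13, with a median of -0.03, and 0 were called, beside 42.8% positive and a median of -0.14 over all tested genes. Both KO libraries lay above both WT libraries in 3 and below in 2 of these 25, beside 13.2% and 19.2% of all genes. The median ran from -0.43 without KO replicate 1 to 0.60 without WT replicate 2. Chil1, a secreted chitinase-like protein, had 361 and 354.6 CPM in KO, against 224.6 and 271.8 CPM in WT, and a log2 fold change of 0.53 ± 0.21 (SE; edgeR unadjusted p = 0.05045). Lbp, which binds bacterial lipopolysaccharide, had 32.81 and 43.43 CPM in KO, against 19.64 and 25.4 CPM in WT. Like Lcn2, both had KO above WT without passing the test. C3, the central complement component, had 334.7 and 181.6 CPM in KO, against 260.2 and 237.8 CPM in WT, with the WT libraries between the KO libraries. Xdh, xanthine oxidoreductase of milk fat globules, had 64.34 and 207.5 CPM in KO, against 88.8 and 86.68 CPM in WT. Near-identical copies such as Lyz1 and Lyz2, or Saa1 and Saa2, have uncertain counts.

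Receptors and partners of these proteins were measured where they had a row, 17 of 18 listed. Of the 10 tested, 8 were positive and 2 negative, beside 42.8% positive over all genes, with a median of 0.20, and 0 were called. The median ran from 0.13 without KO replicate 2 to 0.47 without WT replicate 1. Lrp1, an endocytic receptor that takes up lactoferrin, had 586.3 and 888.3 CPM in KO, against 464.4 and 541.6 CPM in WT. Tfrc, the transferrin receptor for iron uptake, had 273.8 and 433.5 CPM in KO, against 257.6 and 242.6 CPM in WT. Anxa2 had 398.4 and 198.4 CPM in KO, against 275 and 285.9 CPM in WT. Lrp1 and Tfrc were the 2 of these 10 genes whose KO values both exceeded WT, beside 13.2% of all genes, and neither passed the test.

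The Toll-like receptor and NF-kB pathway, which induces Lcn2 in many epithelia, was split as well. Of 34 listed genes 31 were tested, with 14 positive, 17 negative, a median of -0.06 and 0 called. All tested genes had 42.8% positive and a median of -0.14. Both KO libraries lay above both WT libraries in 4 and below in 7 of these 31, beside 13.2% and 19.2% of all genes, so the counts were near the background. The median ran from -0.13 without KO replicate 2 to 0.12 without KO replicate 1. Nfkb1, the p105 and p50 subunit gene, had 197.3 and 194.5 CPM in KO, against 208.9 and 200.9 CPM in WT. Rela, the p65 subunit gene, had 109.2 and 235 CPM in KO, against 103.4 and 111.3 CPM in WT. Traf6, an adaptor of the pathway, had 127.6 and 205.5 CPM in KO, against 138.8 and 179.7 CPM in WT. Only Nfkb1 of these 3 had groups that did not overlap, by a small margin. Tlr4, the lipopolysaccharide receptor, had 8.846 and 3.571 CPM in KO, against 15.74 and 15.9 CPM in WT, and Tlr6 had 0.4455 and 1.222 CPM in KO, against 0 and 0.05043 CPM in WT.

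Because Lcn2, Ltf and Pglyrp1 are neutrophil granule proteins, neutrophil markers were read beside them. Of 15 neutrophil markers with a row, 5 had 0 counts in every library, among them the defining genes Ly6g, Camp and Retnlg. The whole list summed to 8.146 and 200.2 CPM in KO, against 9.37 and 9.043 CPM in WT, below the level of Lcn2 in each library and highest in KO replicate 2. Nearly all of the high sum in KO replicate 2 was Csf3r. Csf3r and Cxcr2 were the most abundant of the list and were set aside after their values were seen. The other 13 summed to 1.496 and 0.3116 CPM in KO, against 1.881 and 1.95 CPM in WT, and KO replicate 2 was the lowest library. Its sum was that of Itgam alone (13 counts), and 7 of the 15 markers had 3 counts or fewer in every library. These sums are near the floor and give no reading of neutrophil content. The part of neutrophil RNA in the levels of Lcn2, Ltf and Pglyrp1 was not tested. S100a8 had 0.09546 and 0 CPM in KO, against 0.2484 and 1.546 CPM in WT, and was highest in WT replicate 2 (92 counts). In that library S100a9, Ngp and Prtn3 of the same list had 0 counts, while Cxcr2, Csf3r and Itgam had 366, 56 and 24. Itgam had 0.9546 and 0.3116 CPM in KO, against 1.366 and 0.4034 CPM in WT, and Cxcr2 6.094 and 7.478 CPM in KO, against 7.223 and 6.152 CPM in WT. Csf3r, the granulocyte colony-stimulating factor receptor, had 0.5569 and 192.4 CPM in KO replicates 1 and 2, against 0.2662 and 0.9413 CPM in WT. Csf3r had an unadjusted p of 0.04061 and an adjusted p of 0.9989 in the edgeR fit across all genes, and its high level was in KO replicate 2 alone. Of the neutrophil markers 4 were tested, 2 positive and 2 negative, with a median of -0.23 and 0 called. Leaving out a KO library gave a median of -0.67 (replicate 1) or -0.11 (replicate 2), and leaving out a WT library gave 0.39 (replicate 1) or -1.10 (replicate 2), so the median gives no direction.

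Markers of other immune cells summed to 99.11 and 318.8 CPM in KO, against 67.72 and 150.7 CPM in WT, and most of this was Cd74. Cd74, the invariant chain of antigen presentation, had 71.93 and 289.2 CPM in KO, against 56.13 and 136.4 CPM in WT. Ptprc, the pan-leukocyte antigen CD45, had 2.689 and 25.02 CPM in KO, against 3.319 and 3.328 CPM in WT, and was highest in KO replicate 2. Tyrobp had 0.09546 and 0 CPM in KO, against 0.2839 and 0.7564 CPM in WT. Of 9 tested, 5 were positive and 4 negative, with a median of 0.22 and 0 called. Leaving out a KO library gave a median of -4.09 (replicate 1) or -0.29 (replicate 2), and leaving out WT replicate 1 gave 0.84, so it gives no direction. Their part in the levels of Lcn2 or Plet1 was not tested.

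Plet1 is known as a marker of luminal progenitors, so luminal markers were read beside it, and they were present in the basal sort. Luminal progenitor markers, 9 with a row, summed to 188.2 and 385.1 CPM in KO, against 189.4 and 390 CPM in WT, each sum below the level of Lcn2 alone. Of these 9 genes 2 had a positive and 7 a negative fold change, their median was -0.44, and 0 were called. Over all tested genes 42.8% were positive, with a median of -0.14. The median was -1.24 without KO replicate 1, -0.84 without KO replicate 2 and -0.30 without WT replicate 2. Kit, a receptor of luminal progenitors, had 6.905 and 1.438 CPM in KO, against 15.62 and 27.6 CPM in WT (log2 fold change -2.37 ± 1.01 SE; edgeR unadjusted p = 0.06639). Ehf had 15.56 and 9.611 CPM in KO, against 15.47 and 40.39 CPM in WT, and Sox10 had 68.1 and 44.27 CPM in KO, against 71.5 and 80.62 CPM in WT. Aldh1a3 had 44.82 and 166.8 CPM in KO, against 34.32 and 94.47 CPM in WT, and the casein gene Csn3 31.47 and 148.8 CPM in KO, against 29.3 and 101 CPM in WT. Aldh1a3 and Csn3 were higher in replicate 2 of each genotype, as was Plet1. Lcn2 had this order with TMM scaling but not without it, at 1314 and 1267 CPM in KO replicates 1 and 2. How many genes share this order was not counted. Of the 9 genes, 3 had both KO libraries below both WT libraries, beside 19.2% of all genes tested. They were Kit, Sox10 and Elf5. Elf5 had 1.496 and 0 CPM in KO, against 3.052 and 4.791 CPM in WT. Lcn2 had KO above WT.

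Pan-luminal markers summed to 1205 and 1670 CPM in KO, against 1094 and 1510 CPM in WT, with 7 of 10 positive and a median of 0.17, which ran from -0.13 without KO replicate 2 to 0.42 without WT replicate 2. Epcam, the epithelial adhesion molecule, had 460.3 and 651.3 CPM in KO, against 425.1 and 574.9 CPM in WT, and Krt18, the partner keratin of Krt8, had 183.6 and 271.3 CPM in KO, against 163.4 and 311.6 CPM in WT. Gata3 had 105.7 and 227.6 CPM in KO, against 122.4 and 111.3 CPM in WT, and Prom1 7.064 and 0.3835 CPM in KO, against 8.678 and 19.92 CPM in WT. Hormone-sensing markers summed to 117.1 and 356.8 CPM in KO, against 126.3 and 189.6 CPM in WT, with 3 of 8 positive and a median of -0.22, which ran from -0.39 without KO replicate 1 to 0.01 without WT replicate 2. Foxa1, a factor of hormone-sensing cells, had 9.435 and 89.09 CPM in KO, against 13.06 and 6.539 CPM in WT, and Esr1, the estrogen receptor, had 17.95 and 5.489 CPM in KO, against 32.16 and 13.87 CPM in WT. Basal markers summed to 12927 and 10614 CPM in KO, against 10374 and 10204 CPM in WT, with 7 of 11 positive and a median of 0.28, which was -0.10 without KO replicate 1. Acta2, smooth muscle actin, had 3707 and 2264 CPM in KO, against 2493 and 2331 CPM in WT, and Itga6, the CD49f of the sort, had 2498 and 2637 CPM in KO, against 2213 and 2021 CPM in WT. Myh11, smooth muscle myosin, had 1854 and 1228 CPM in KO, against 1644 and 1813 CPM in WT, and Oxtr, the oxytocin receptor, had 165.4 and 332.7 CPM in KO, against 165.2 and 104.1 CPM in WT. Areg, an EGF receptor ligand of hormone-sensing cells, had 28.96 and 23.51 CPM in KO, against 29.8 and 32.53 CPM in WT. None of these lists had a called gene, and over all tested genes 42.8% were positive, with a median of -0.14. Their part in the defence gene values was not tested.

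**Figure D5:**
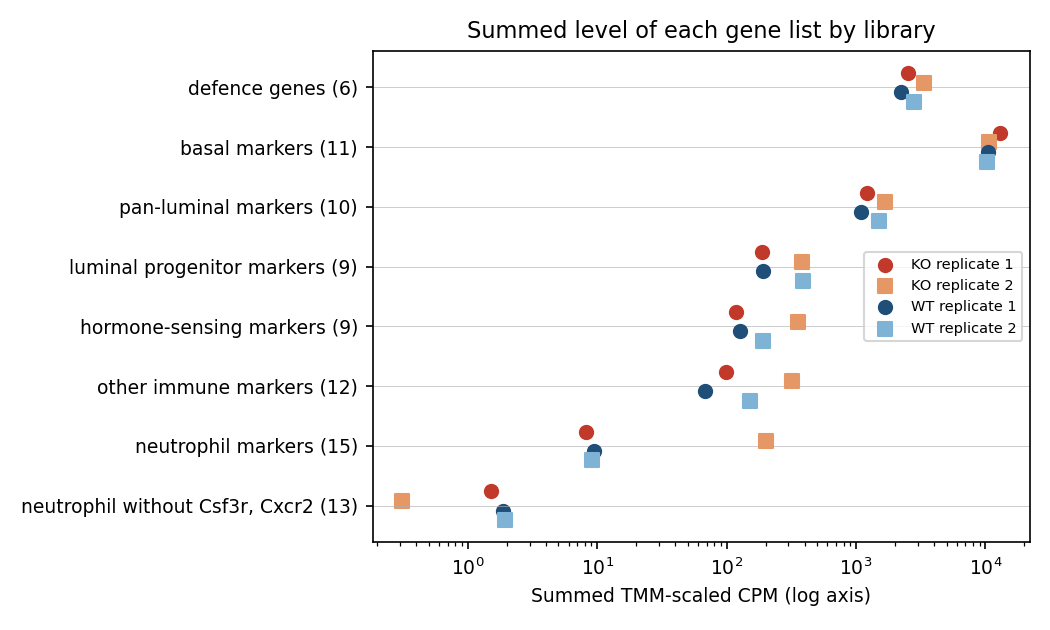
Summed TMM-scaled CPM (log axis) of the defence genes and of marker lists in each library, with the number of genes with a row in parentheses. The defence genes sum to 2239 to 3342 CPM and the whole neutrophil list to 8.146 to 200.2 CPM, highest in KO replicate 2. There the same list without Csf3r and Cxcr2 is lowest (0.3116 CPM, from 13 counts of Itgam alone).

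Genes with the pattern most like Lcn2 and like Plet1 over the 4 libraries were ranked by the root mean square difference of centred log2(CPM + 1), among 3519 protein-coding genes at a mean of 50 CPM or more. Nearest to Lcn2 were Slc6a6 (0.0227), the taurine transporter, Serinc3 (0.037), Rab2a (0.0419) and Rhou (0.0449). Slc6a6 had 539.7 and 655.1 CPM in KO, against 407.9 and 486.9 CPM in WT, the same order of libraries as Lcn2. Nearest to Plet1 were Cep350 (0.016), Asxl1 (0.0354), Tulp4 (0.0381) and Slc39a14 (0.0425). Cep350 had 157.7 and 271.6 CPM in KO, against 178.8 and 224.6 CPM in WT. Plet1 ranked 1678 by likeness to Lcn2 (difference 0.287) and Slpi 3490 (1.12), so that the 3 abundant defence genes had different patterns. With 4 libraries these likenesses are a description.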

How the data were processed

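RNA of GFP+ basal cells was sequenced in 4 libraries. The deposited values are raw counts per Ensembl gene, 1 file per library, made by the authors with TopHat2 (2.02) and HTSeq on NCBIM37 (mm9), per the submitters' processing notes. No annotation release or strand setting is given in the sources used here. Libraries were made with a PicoPure extraction kit and NuGEN protocols, per the labels' protocols. The 5 summary rows stayed out of totals and tests; reads outside features were 57.85% and 61.52% of counted lines in KO, against 61.4% and 57.59% in WT. Symbols and exon lengths came from GENCODE M21 (GRCm38; 30082 rows matched), so no file coordinates are given.

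The quasi-likelihood test of edgeR (4.0.16; R 4.3.3) compared genotypes after filterByExpr and TMM, with Benjamini-Hochberg adjustment over 15364 genes. SE is the fold change divided by the square root of F. Alternatives were DESeq2 1.42.0, limma 3.58.1 voom, other scalings and filters, a replicate block and each library left out, where a lone library is assumed to vary like the others. The rule for named genes took, per list, called genes, the 3 of highest mean CPM and the 2 of smallest p. Members and lists were chosen with earlier results of these data known. The script was tested on simulated data. With each gene's spread as estimated from the 4 libraries, it recovered 10% of simulated 2-fold and 60% of 16-fold changes. An absence of calls therefore does not show an absence of change. Intervals and floors cover counting error only.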

Additional observations from a re-analysis of the deposited data

How the results depend on the processing

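No member was called by the main edgeR test, and the count of called genes was 0 under each scaling, filter and limma voom setting, 4 with DESeq2 and 0 to 5724 with a library left out. The 5724 calls came without KO replicate 1, and leaving out either WT library gave 5 each. Lcn2 kept a positive fold change, 0.30 to 0.55 with a library left out (0.52 without KO replicate 1), a sign largely set by its separate groups. Ltf stayed negative, -9.74 to -1.01 with a library left out. Its value without KO replicate 1 rests on 1 count and depends on the prior count. Plet1 turned to -0.06 with upper quartile scaling, -0.08 with total count scaling and -0.03 with limma voom, and ran from -0.38 to 0.42 with a library left out. Slpi was -0.29 and Wfdc2 -0.40 with limma voom, and they ran from -1.85 to 0.89 and from -3.44 to 1.57 with a library left out. Slpi was -0.02 and Plet1 -0.09 without WT replicate 1. Pglyrp1 had too few counts for the main filter, so no setting is compared with it. Of 54 recomputed list medians, 8 had the other sign, all 8 with a library left out. The cause was not tested.

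With the replicate number as a block, 0 genes were called and 79 had an unadjusted p under 0.05 in edgeR. Slpi was -0.47 and Wfdc2 -0.82 with the replicate block. The labels do not say that the numbers pair the libraries, and the replicate differences of KO and WT had a correlation of 0.0231 across 15364 genes, which are not independent replicates.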

Other observations

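Muc4, a membrane mucin of luminal cells, had 20.52 and 197.9 CPM in KO, against 46.87 and 175.4 CPM in WT, and Prlr, the prolactin receptor, had 29.21 and 210.1 CPM in KO, against 21.77 and 100.6 CPM in WT. In both genes replicate 2 was the higher library of each genotype. They were set side by side after their values were seen, and how many genes share this order was not counted. Lyz2, a lysozyme gene of macrophages, had 20.05 and 1.366 CPM in KO, against 3.496 and 4.438 CPM in WT, with KO replicate 1 highest and KO replicate 2 lowest.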
